A study of Mus musculus with 6 samples.

Results

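The genes described are 10 Kruppel-like factors (KLFs), Klf2, Klf3, Klf4, Klf5, Klf6, Klf7, Klf9, Klf10, Klf13 and Klf15, chosen by name among the 24982 rows of a deposited RNA-seq comparison, of which 14835 carry an adjusted p. Mouse cumulus granulosa cells of the outbred Kun-Ming stock were sequenced as 3 control libraries and 3 libraries labelled Atg5-KD, from a study that transfected short hairpin RNAs against the autophagy gene Atg5. What the control cells were given, how many hairpins were used, and whether libraries came from separate cultures or animals are not given in the sources used here, so the p-values measure a spread that may be technical. The file holds 1 value per gene for both groups together, and no spread of a level over libraries can be given.

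KLFs are transcription factors that bind GC-rich and CACCC-type DNA through C2H2 zinc fingers at the end of the protein, while the part before the fingers recruits either coactivators or corepressors. One branch, with Klf2, Klf4, Klf5, Klf6 and Klf7, acts mostly by activation, a second, with Klf3, binds the corepressor CtBP, and another, with Klf9, Klf10 and Klf13, binds the Sin3A corepressor, while Klf15 stands apart. Several respond within hours to hormones, growth factors or stress.

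By RefSeq (GRCm38.p6) the 10 genes lie on 10 chromosomes, Klf7 on 1, Klf4 on 4, Klf3 on 5, Klf15 on 6, Klf13 on 7, Klf2 on 8, Klf6 on 13, Klf5 on 14, Klf10 on 15 and Klf9 on 19. The shared part of these factors was visible in the coding sequences. In GENCODE M21 transcripts (GRCm38), each of the 10 held 3 C2H2 codon patterns in a block of 81 codons, with between 1 and 39 codons after the last finger. The middle finger is shown for the 3 genes called in the test below and for Klf4 and Klf7, the nearest relatives of Klf2 and Klf6, with the codons of the zinc-binding cysteines and histidines in capitals.
Klf2: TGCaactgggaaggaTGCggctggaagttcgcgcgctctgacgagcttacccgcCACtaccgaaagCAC
Klf4: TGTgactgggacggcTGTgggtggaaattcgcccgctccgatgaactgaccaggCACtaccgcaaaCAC
Klf6: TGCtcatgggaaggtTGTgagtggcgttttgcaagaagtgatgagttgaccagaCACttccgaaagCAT
Klf7: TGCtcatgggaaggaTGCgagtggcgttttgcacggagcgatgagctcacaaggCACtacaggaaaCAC
Klf15: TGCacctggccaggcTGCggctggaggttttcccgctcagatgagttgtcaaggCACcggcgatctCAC

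Over the finger block, pairwise identity of the coding bases ran from 57.2% to 81.1%, with a median of 64.6% over 45 pairs. Before the block it ran from 28.5% to 52.3%, with a median of 44.8%. Gaps count as differences, and unlike the block, the part before it differs in length between genes. The values before the block are therefore partly set by length and are not a like measure to those of the block. The closest pairs in the block were Klf6 and Klf7 at 81.1% and Klf2 and Klf4 at 78.2%. Klf9 was closest to Klf13, at 72.8%. The longest run of coding bases shared exactly by any pair was 26, between Klf6 and Klf7, and 0 pairs of members shared an exact run of 50 transcript bases. Such a run was shared with transcripts of other genes by 2 members, Klf3 and Klf7. For Klf3 these were several genes, mostly with runs of 50 to 53 bases. Exons of the antisense lincRNA Gm26649 covered 39.3% of the exonic bases of Klf7, and 404 exonic bases of Klf3 were covered by the antisense transcript Gm20033. The sources used here do not say whether counting used the strand, so the level of Klf7 in particular is uncertain.

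**Figure D1:**
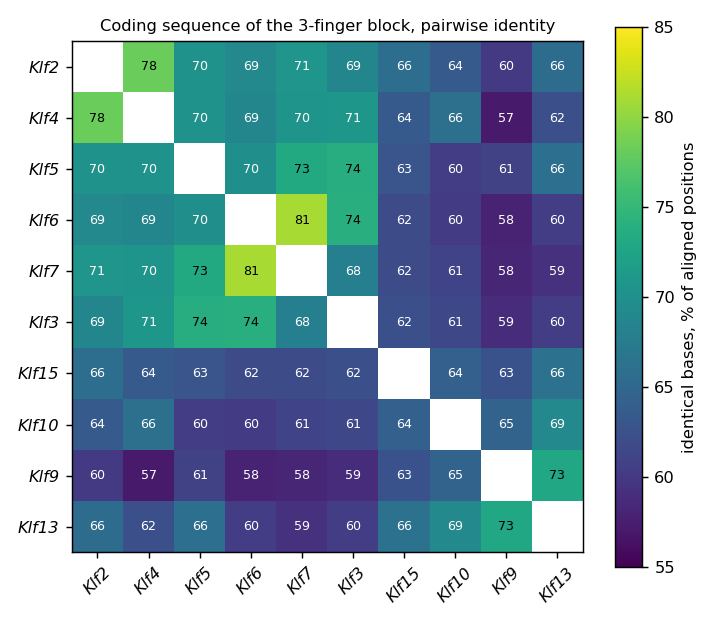
Identity of the coding bases of the 81-codon finger block for each pair of the 10 KLF genes, in percent of aligned positions (colour and number). Klf6 with Klf7 at 81.1% and Klf2 with Klf4 at 78.2% are the brightest pairs, and Klf4 with Klf9 at 57.2% the darkest.

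Fold changes are taken as Atg5-KD over control because the table's name puts its groups in that order. The targeted gene gives no firm check of this reading, since its call depends on the scale. Atg5 had a log2 fold change of -0.06 with a standard error of 0.14 in the authors' deposited table (its Wald test, adjusted p = 0.822). On the scale of all reads, explained next, Atg5 stood at -0.36 and was called lower (adjusted p = 0.0269), as were 38.7% of all tested genes. If the order were the opposite, every direction given here would turn. Base means in the authors' deposited table, which average size-factor normalized counts over the libraries, sum to about 14531400, and no total per library is given. The 45S ribosomal RNA locus Rn45s made up an estimated 1.17% of the normalized counts in control and 17.9% in Atg5-KD. Scaling both groups to all reads instead therefore shifts every log2 fold change by -0.30, and values or counts on that scale are given where they change a call. With Rn45s left out of the sums the shift was -0.03. Granulosa markers were present, with base means in the authors' deposited table of 30063 for Inha, 24381 for Inhba and 1816 for Foxl2. Cyp19a1, the aromatase gene, had a base mean of 2.34 and Amh of 6.07 in the authors' deposited table.

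Klf6 had the highest estimated level of the family per kb of exon. Exon lengths are those of GENCODE M21, and the annotation used for counting is not given, so the order is approximate. Estimated from base mean and fold change and divided by exon length, Klf6 stood at 362 normalized counts per kb in control and 499 in Atg5-KD. Klf9 followed at 192 and 180 per kb, and Klf13 at 137 and 146. Klf10 stood at 76.3 and 75.0 per kb. Klf5 was the lowest of the 10, at 9.91 per kb in control and 5.49 in Atg5-KD. Klf2 was the fourth of the 10 in control at 85.5 per kb, above Klf10, and the seventh in Atg5-KD at 37.9, below Klf4 at 57.4 and Klf15 at 39.3. No spread over libraries is available, so it cannot be said which neighbours in this order differ. Of the summed per-kb level of all 17 named KLF genes, Klf6 held 29.0% in control and 37.7% in Atg5-KD, and Klf2 held 6.84% and 2.87%. Base means of the members in the authors' deposited table ran from 40.1 for Klf5 to 1890 for Klf6. These are the 21.8th and the 90.0th percentile of tested genes, so not all of the 10 were highly expressed here.

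**Figure D2:**
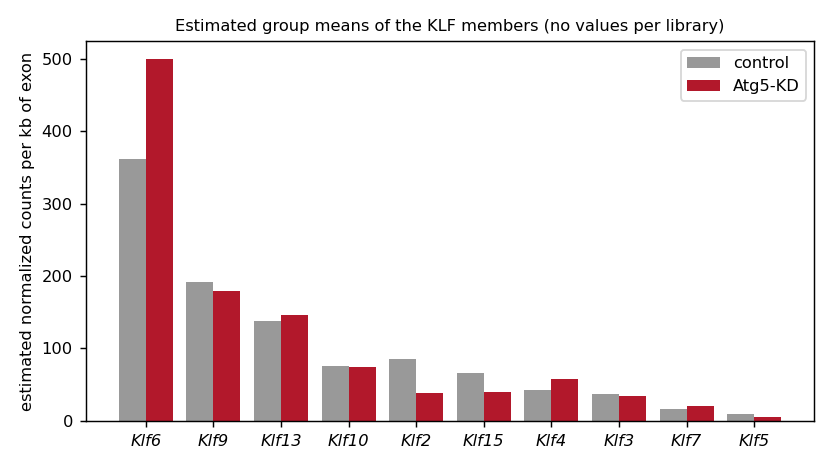
Estimated group means of the 10 KLF genes in normalized counts per kb of exon (bars, control grey, Atg5-KD red), ordered by mean level, with no error bars because the deposited table has no values per library. Klf6 is the tallest at 362 and 499 per kb, and Klf2 falls from 85.5 to 37.9.

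Between the groups 1 member, Klf6, rose, 2 members, Klf2 and Klf15, fell, and 7 did not pass the test (Wald test of the authors' deposited table, adjusted p under 0.05 over all tested genes). Over all tested genes 20.9% were called, 10.4% higher and 10.5% lower, so 3 of 10 is near the background. The members' median log2 fold change was -0.06, against 0.00 over all tested genes, and their median absolute log2 fold change was 0.38 against 0.23. Scaled to all reads, 0 members were higher and 4 lower, beside 3.6% of all tested genes higher, 38.7% lower and 42.3% called in all.

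**Figure D3:**
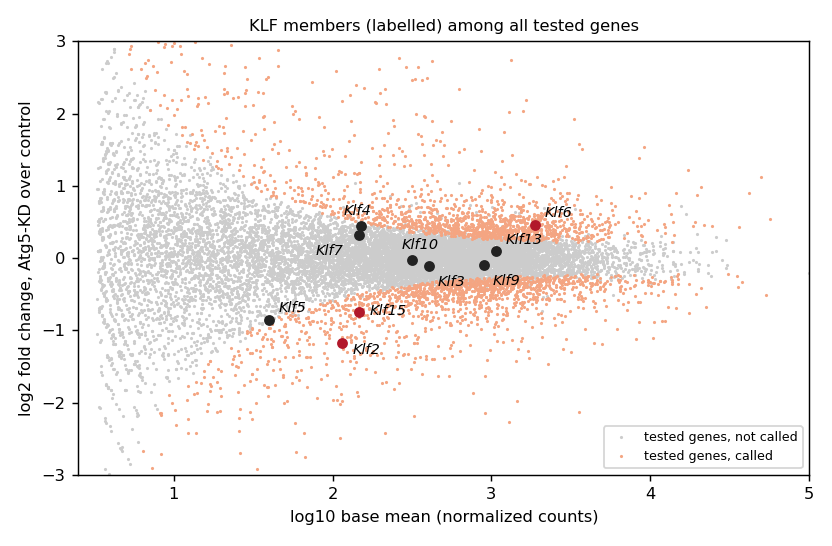
Log2 fold change (Atg5-KD over control) against log10 base mean for all tested genes (grey not called, orange called at an adjusted p under 0.05), with the 10 KLF genes as large labelled points, red where called; 91 genes beyond the axes are not drawn. Klf2 and Klf15 lie below the band of uncalled genes and Klf6 above it, while Klf3, Klf9, Klf10 and Klf13 lie within 0.11 of 0.

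Among the activating members, Klf2 changed most. Klf2, which keeps endothelial cells and T cells quiescent, had estimated means of 158 normalized counts in control and 70.1 in Atg5-KD. It fell 2.25-fold, at a log2 fold change of -1.17 with a standard error of 0.21 in the authors' deposited table (its Wald test, adjusted p = 8.39e-07). The 95% interval of the fall ran from 1.69-fold to 3.00-fold. By absolute Wald statistic Klf2 ranked 507 of 14835, and the call was kept under all 10 alternative settings tried. Klf2 (gene 16598) spans bases 72319062 to 72321654 of chromosome 8, plus strand.

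Klf6, a broadly expressed early-response gene, had estimated means of 1589 normalized counts in control and 2191 in Atg5-KD. The rise was 1.38-fold, with a 95% interval from 1.22-fold to 1.56-fold, at a log2 fold change of 0.46 with a standard error of 0.09 in the authors' deposited table (its Wald test, adjusted p = 1.00e-05). This call depends on the scale, since scaled to all reads the log2 fold change was 0.17 (adjusted p = 0.138). Scaled to all reads but Rn45s, Klf6 kept its call at 0.43 (Wald adjusted p = 4.67e-05). The call was also lost in a test against a log2 fold change of 0.25 in place of 0 (adjusted p = 0.241). Klf6 (gene 23849) spans bases 5861489 to 5870393 of chromosome 13, plus strand.

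The other activating members were not called. Klf4, one of the factors used to reprogram cells to pluripotency, had estimated means of 129 and 175 normalized counts. Its log2 fold change was 0.45 with a standard error of 0.20 in the authors' deposited table (its Wald test, adjusted p = 0.102, unadjusted 0.0268). Its interval ran from 0.05 to 0.84. The point estimate of Klf4 was thus close to that of Klf6, with a larger standard error at a lower level. With the trend on GC content and length removed, Klf4 stood at 0.58 and was called (adjusted p = 0.0332).

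Klf5, a driver of proliferation in epithelia and of smooth muscle remodelling, had estimated means of 51.5 and 28.6 normalized counts. The log2 fold change was -0.85 with a standard error of 0.36 in the authors' deposited table (its Wald test, adjusted p = 0.0755, unadjusted 0.0179). At that error the smallest change that could be called was 0.92 on the log2 scale. On the scale of all reads it was called lower at -1.15 (adjusted p = 0.00495). Klf7, known for axon outgrowth, stood at 0.32 with a standard error of 0.25 in the authors' deposited table (its Wald test, adjusted p = 0.413), with the antisense overlap given above.

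Klf15, a glucocorticoid-induced regulator of glucose and amino acid metabolism in liver and muscle, was the other member that fell. Its estimated means were 183 normalized counts in control and 110 in Atg5-KD. The fall was 1.67-fold, with a 95% interval from 1.29-fold to 2.16-fold, at a log2 fold change of -0.74 with a standard error of 0.19 in the authors' deposited table (its Wald test, adjusted p = 0.00097). The call was lost with Bonferroni adjustment (adjusted p = 1) and against a log2 fold change of 0.25 (adjusted p = 0.13). Klf15 (gene 66277) spans bases 90461043 to 90491803 of chromosome 6, plus strand.

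None of the 4 members that bind corepressors was called. Klf3, a CtBP-binding repressor, had estimated means of 417 and 388 normalized counts, with an interval of the log2 fold change from -0.50 to 0.29 (Wald adjusted p = 0.78 in the authors' deposited table). Klf9, which responds to thyroid hormone and glucocorticoids, stood at 924 and 865, with an interval from -0.38 to 0.19 (Wald adjusted p = 0.718 in the authors' deposited table). Scaled to all reads, Klf9 was called lower at -0.39 (adjusted p = 0.0199). Klf13, its closest relative in the finger block, stood at 1035 and 1103, with an interval from -0.16 to 0.34 (Wald adjusted p = 0.687 in the authors' deposited table). On the scale of all reads its sign turned, to -0.21 (adjusted p = 0.191). Klf10, an early TGF-beta response gene, was nearest to 0, at 319 and 313, with an interval from -0.30 to 0.25 (Wald adjusted p = 0.939 in the authors' deposited table).

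Changes of more than 1.23-fold in either direction lie outside the interval of Klf10, and changes of more than 1.41-fold outside that of Klf3. Precision did not follow level alone. The standard errors of Klf3, Klf7 and Klf9 exceeded those of 98.5%, 97% and 96.5% of the 200 tested genes nearest in base mean. Klf6 and Klf10 exceeded 15% and 25% of theirs.

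**Figure D4:**
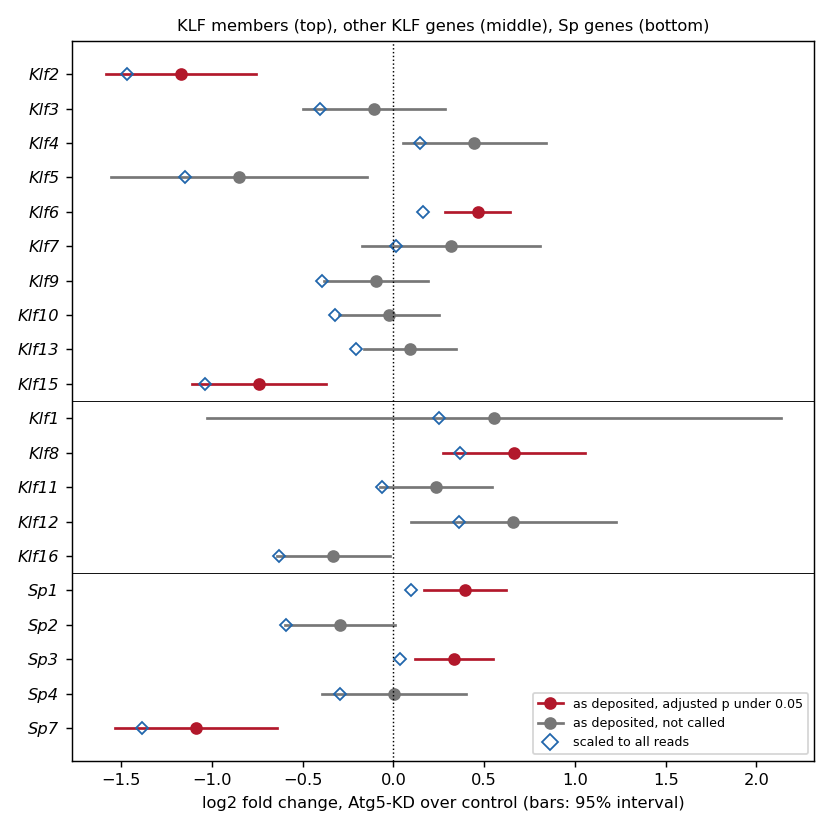
Log2 fold change (Atg5-KD over control) of the 10 KLF members, the 5 tested other KLF genes and the 5 tested Sp genes; circles and bars give the deposited value and its 95% interval, red where the adjusted p is under 0.05, and blue diamonds the value scaled to all reads. Klf2, Klf15 and Sp7 stay left of 0 on both scales, while the diamond of Klf6 moves to 0.17 and that of Klf13 to -0.21.

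Promoter sequences from RefSeq (GRCm38.p6, 250 bases before to 50 after the start) matched 8 of the 10 members, not Klf5 and Klf10. They are shown for the 3 called genes, so that the 2 that fell can be set beside the 1 that rose. Capitals mark CACCC and GGGCGG, the letters that KLF and Sp fingers recognise, and the MEF2-type motif of CTA and TAG with 4 bases between them, each on either strand. The Klf15 window lies inside the gene's annotated span, at a start other than its outermost one.
Klf2, chr8:72318812-72319111, plus strand: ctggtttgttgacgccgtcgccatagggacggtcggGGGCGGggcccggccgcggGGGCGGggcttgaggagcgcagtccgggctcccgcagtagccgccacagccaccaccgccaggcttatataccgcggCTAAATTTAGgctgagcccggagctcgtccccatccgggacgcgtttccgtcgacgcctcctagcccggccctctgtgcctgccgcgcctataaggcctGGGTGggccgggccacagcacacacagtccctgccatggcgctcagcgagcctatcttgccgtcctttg
Klf6, chr13:5861239-5861538, plus strand: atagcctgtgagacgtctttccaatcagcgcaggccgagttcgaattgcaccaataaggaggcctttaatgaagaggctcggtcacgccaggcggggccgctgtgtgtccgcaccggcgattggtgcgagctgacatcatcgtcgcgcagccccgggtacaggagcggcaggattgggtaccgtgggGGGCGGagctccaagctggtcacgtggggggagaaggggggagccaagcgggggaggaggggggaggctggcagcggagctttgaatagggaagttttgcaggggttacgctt
Klf15, chr6:90462326-90462625, plus strand: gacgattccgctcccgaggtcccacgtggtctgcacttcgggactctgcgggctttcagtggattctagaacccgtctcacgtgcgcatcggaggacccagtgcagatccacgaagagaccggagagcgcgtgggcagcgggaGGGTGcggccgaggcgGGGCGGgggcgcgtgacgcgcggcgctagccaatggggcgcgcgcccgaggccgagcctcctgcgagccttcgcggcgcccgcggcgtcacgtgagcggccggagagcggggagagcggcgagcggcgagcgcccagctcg

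The Klf2 promoter held 2 GGGCGG boxes and 1 CACCC match, the Klf15 promoter 1 of each and the Klf6 promoter 1 GGGCGG and 0 CACCC. In none of these 3 did a CACCC match share bases with a GGGCGG box. Among the 8 member promoters, 7 held GGGCGG and 6 held CACCC, beside 35.7% and 57.5% of all 32851 promoters of the same length. Member promoters had a GC content of 58.3% to 76.7%, above the median of 52.7% over all promoters, and GC-rich letters are found more often in such sequence. The MEF2-type motif ctaaatttag, which ends 109 bases before the Klf2 start, was found in that member alone and in 3.69% of all promoters. The forkhead motif GTAAACA was found in Klf9 alone, not in Klf2, beside 3.65% of all promoters. TTC and GAA spaced by 3 bases were also in Klf9 alone (8.30% of all promoters). The E-box CACGTG was found in Klf4, Klf6 and Klf15 (7.15% of all promoters), the cyclic AMP half-site TGACG in 6 of 8 (20.8%) and CCAAT in 4 of 8 (37.4%). TATAAA, the CArG box and GAAA spaced by 2 bases, an interferon-type element, were in 0 of 8, beside 13.6%, 1.63% and 3.44% of all promoters. Matches describe letters in this window and are not shown to be bound.

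Among KLF genes outside the 10, Klf8, a CtBP-binding relative of Klf3, rose 1.59-fold with estimated means of 110 and 175 normalized counts. Its log2 fold change was 0.67 with a standard error of 0.20 in the authors' deposited table (its Wald test, adjusted p = 0.00674), and 0.37 when scaled to all reads (adjusted p = 0.128). With the trend on GC content and length removed its call was lost as well (adjusted p = 0.0666). Klf12, of the same branch, stood at 0.66 with a standard error of 0.29 in the authors' deposited table (its Wald test, adjusted p = 0.0888). Klf1, Klf11 and Klf16 were not called, at 0.55, 0.23 and -0.33 in the authors' deposited table. One of these genes, Klf16, was called lower on the scale of all reads, at -0.63. Klf17 had a base mean of 1.07 and no adjusted p, and Klf14 was listed at 0 in the authors' deposited table.

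Sp factors share the 3-finger block with the KLFs. Of 5 tested, 2 rose and 1 fell in the authors' deposited table, beside 10.4% and 10.5% of all tested genes. Sp7, known as osterix for its role in bone, fell 2.12-fold, from an estimated 174 to 82.1 normalized counts, at a log2 fold change of -1.09 with a standard error of 0.23 in the authors' deposited table (its Wald test, adjusted p = 3.68e-05). The widely expressed activators Sp1 and Sp3 rose, at log2 fold changes of 0.39 and 0.34 in the authors' deposited table, and stood at 0.10 and 0.04, not called, when scaled to all reads. Sp2 stood at -0.30 and Sp4 at 0.00, not called, in the authors' deposited table. With all reads as the scale 0 Sp genes were higher and 2 lower, Sp7 and Sp2, beside 3.6% and 38.7% of all tested genes.

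Proteins that act with or on KLFs were called about as often as the 20.9% of all tested genes. Of 13 cofactors 1 rose and 1 fell in the authors' deposited table. Ctbp1, the corepressor bound by Klf3, stood at -0.30, and Rcor1, part of the CoREST complex, at 0.41 in the authors' deposited table. The Sin3A corepressor bound by Klf9, Klf10 and Klf13 was not called, with Sin3a at 0.04 in the authors' deposited table. Of 9 ubiquitin ligases with KLF substrates, 2 rose and 0 fell in the authors' deposited table. Wwp1, which marks Klf2 and Klf5 for breakdown, rose 1.46-fold (Wald adjusted p = 0.000169), and Itch 1.28-fold, in the authors' deposited table. On the scale of all reads Rcor1, Wwp1 and Itch were not called, 0 ligases were higher and 3 lower, and 0 cofactors were higher and 8 lower. Of all tested genes 3.6% were higher and 38.7% lower on that scale. With the GC and length trend removed, none of Ctbp1, Rcor1, Wwp1 and Itch was called.

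Regulators known to control KLF genes in other cells had 2 of 14 higher and 3 lower by the authors' deposited table. The shares over all tested genes were 10.4% and 10.5%. Foxo1, which induces Klf2 in lymphocytes, fell 1.97-fold, from an estimated 8197 to 4153 normalized counts (Wald adjusted p = 2.53e-10 in the authors' deposited table). The glucocorticoid receptor gene Nr3c1 rose, at a log2 fold change of 0.68 in the authors' deposited table (its Wald test, adjusted p = 1.61e-05), and kept its call on the scale of all reads at 0.38. The thyroid hormone receptor gene Thra fell 1.47-fold, Srf fell 1.46-fold and Tgfbr1 rose 1.38-fold in the authors' deposited table. Mapk7, the kinase upstream of Klf2 in endothelium, stood at -0.31 (Wald adjusted p = 0.092), and Mef2a, Mef2c and Mef2d were not called, in the authors' deposited table. On the scale of all reads Tgfbr1 was not called, and 1 regulator was higher and 8 lower, beside 3.6% and 38.7% of all tested genes. Mapk7, Mef2c and Mef2d were among the lower. Neither Srf nor Tgfbr1 was called with the GC and length trend removed, while Mef2c was called lower at -0.70 (Wald adjusted p = 0.0155).

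Glucocorticoid-induced genes, a group that includes Klf9 and Klf15 in other tissues, had 2 of 8 members higher and 1 lower by the authors' deposited table. The shares over all tested genes were 10.4% and 10.5%. Fkbp5 rose 1.48-fold and Sgk1 1.45-fold, while Tsc22d3 fell 1.37-fold, in the authors' deposited table. Klf15 thus moved opposite to Fkbp5 and Sgk1, and the same way as Tsc22d3. The other 5 genes of the list, and Klf9, were not called in the authors' deposited table. The list had 2 higher and 2 lower on the scale of all reads, beside 3.6% and 38.7% of all tested genes.

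Genes reported as KLF targets in other cells had 2 of 13 tested members higher and 3 lower by the authors' deposited table. Over all tested genes these shares were 10.4% and 10.5%. Tagln and Acta2, smooth muscle genes controlled by Klf4 and Klf5, fell 2.40-fold and 2.25-fold by the authors' deposited table. Both are also counted among the smooth muscle and pericyte markers below. Pdgfa, a Klf5 target, stood at -0.37, and the cell cycle inhibitor Cdkn1a, a target of Klf4 and Klf6, at 0.36, both called in the authors' deposited table. Ccl5, a T cell target of Klf13 and also an interferon-induced chemokine, rose from an estimated 0.27 to 47.6 normalized counts (Wald adjusted p = 6.33e-08 in the authors' deposited table). Thbd and Nos3, endothelial targets of Klf2, were not called, at -0.29 and -0.06 in the authors' deposited table. With all reads as the scale Cdkn1a was not called. On that scale 1 target was higher and 7 lower, Thbd included, beside 3.6% and 38.7% of all tested genes. Pdgfa was not called with the GC and length trend removed.

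Immediate early genes, induced alongside Klf2, Klf4, Klf6 and Klf10 in many cells, had 1 of 14 higher and 3 lower by the authors' deposited table. Over all tested genes these shares were 10.4% and 10.5%. Fos fell 2.65-fold and Egr1 1.47-fold, Btg2 rose 1.65-fold and Myc stood at -0.25, called, in the authors' deposited table. Jun, Junb and Nr4a1 were not called, at -0.16, 0.02 and -0.03 in the authors' deposited table. With all reads as the scale 1 was higher and 9 lower, beside 3.6% and 38.7% of all tested genes. Jun, Junb and Nr4a1 were among the lower. With the GC and length trend removed 3 were higher and 2 lower, since Junb (0.35, adjusted p = 0.0261) and the stress gene Atf3 (0.70, adjusted p = 0.0373) were called higher and Myc was not called.

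Markers of other cell types moved beside the falls of Klf2 and Klf15. In a bulk sample fewer cells of a type and less RNA per cell cannot be told apart. Of 14 leukocyte markers 9 fell and 0 rose in the authors' deposited table, and their summed estimated level went from 2330 to 607 normalized counts. Lyz2 made up most of that sum, at an estimated 1476 and 335. Smooth muscle and pericyte markers fell in 8 of 9 tested genes, with Notch3 higher, by the authors' deposited table, and their sum went from 12638 to 5851. Acta2 and Tagln made up most of it, at an estimated 6128 and 3964 in control and 2725 and 1653 in Atg5-KD. Theca and stroma markers fell in 6 of 7 tested genes by the authors' deposited table, with a sum from 8686 to 5043. Col1a1, Col1a2 and Col3a1 made up most of it, at an estimated 2852, 2669 and 1814 in control and 1334, 1438 and 1371 in Atg5-KD. Cyp17a1 of that list, at a base mean of 0.13, had no adjusted p in the authors' deposited table. Nor had Rgs5 of the smooth muscle and pericyte list, at 0.71. Of 8 tested endothelial markers 0 were called in the authors' deposited table, and their sum was 345 and 313. Pecam1 and Cdh5, which define endothelium, had base means of 18.2 and 12.1, and Cldn5 one of 0.46, in the authors' deposited table. Surface epithelium markers were called in 0 of 6, with a sum of 2481 and 2210, and oocyte markers in 0 of 6, with a sum of 68.7 and 84.1. Granulosa markers had 2 of 8 higher and 2 lower by the authors' deposited table. For the deposited counts of all these marker lists, the shares over all tested genes were 10.4% higher and 10.5% lower. Scaled to all reads, the markers called lower were 13 of 14 for leukocytes, 7 of 7 for theca and stroma, 4 of 6 for surface epithelium, 1 of 8 for endothelium and 0 of 6 for oocytes. Granulosa markers then had 1 higher and 3 lower, and smooth muscle markers had 1 higher and 8 lower. Of all tested genes 3.6% were higher and 38.7% lower on that scale. The part of these cell types in the KLF values was not tested.

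**Figure D5:**
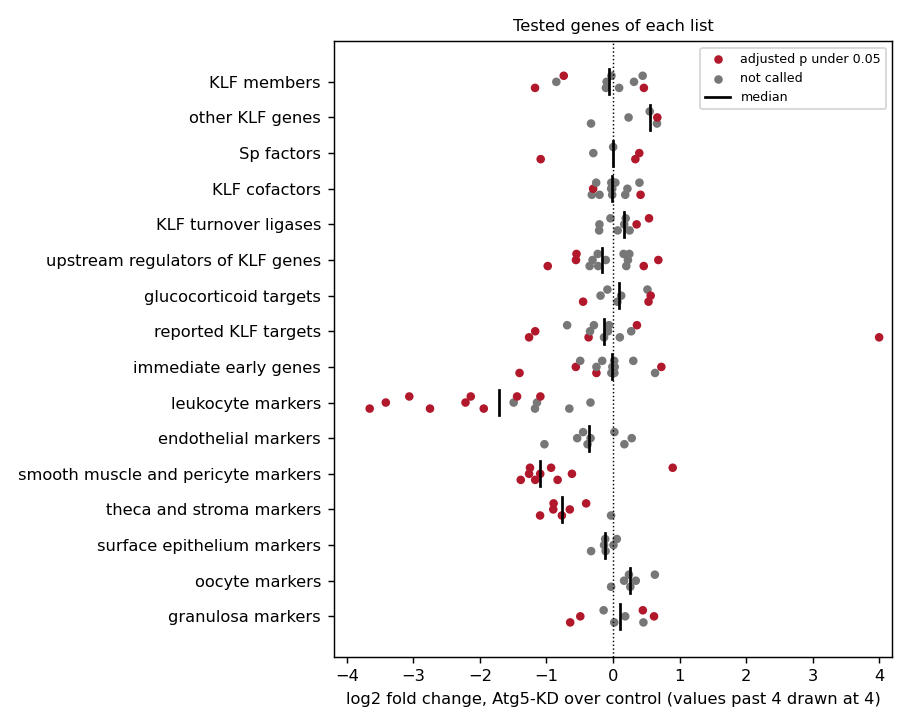
Log2 fold change (Atg5-KD over control) of every tested gene in the KLF-related and cell type lists (points, red where the adjusted p is under 0.05; black bars, list medians; Ccl5, past 4, is drawn at 4). The KLF members spread from -1.17 to 0.46 around a median of -0.06, while leukocyte markers have a median of -1.72 and smooth muscle markers of -1.09.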

How the data were processed

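RNA of 6 libraries (3 control, 3 Atg5-KD, numbered 2, 3 and 4 in each group) was compared. Build mm10 and the tools DESeq2 1.30.1, StringTie 2.1.4, featureCounts 1.6.2 and STAR stand in the submitters' processing notes without a role. The annotation and the strand setting are not given in the sources used here. Per the file headers, the authors deposited a table with base mean (a signal value, the mean of size-factor normalized counts), log2 fold change and its standard error on the log2 scale, a Wald score, a p-value and an adjusted p-value. The score, p-value and Benjamini-Hochberg adjustment were recomputed and 0 rows differed at a tolerance of 1e-06. 0 columns hold values per library, so the quasi-likelihood test planned for the case of counts was not needed and no library could be left out.

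A gene was called at a deposited adjusted p under 0.05. Group means were estimated from base mean and fold change with equal weight for both groups. The scale of all reads used the sums of these means, with Wald p and adjustment redone over all 14835 tested genes. GC content and length came from GENCODE M21 for 99.0% of them, and their trend was removed with lowess (span 0.3). Coding sequences were scanned and aligned with Biopython 1.88, and exact runs found with BLAST 2.17.0. The functions were tested on simulated data. Python 3.11.15, numpy 2.4.6, scipy 1.17.1 and statsmodels 0.14.6 were used.

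The members and gene lists were chosen with earlier results of these data known. Named genes are the members, other KLF and Sp genes, and in other lists up to 4 called genes of smallest adjusted p; Atg5 is included. Tgfbr1, Pdgfa, Sin3a, Jun, Junb, Nr4a1, Atf3, Thbd, Nos3, Mapk7, the Mef2 genes and the named markers outside that rule were chosen after their values were seen. Predicted transcripts were named for their overlap only.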

Additional observations from a re-analysis of the deposited data

How the results depend on the processing

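Of 99 member values under other settings, 90 kept direction and call, 4 lost and 4 gained a call. The 1 left turned sign, Klf13 at -0.21 on the scale of all reads. Settings that change only the threshold, the adjustment, the base mean minimum or the limit tested against keep the deposited log2 fold change. Direction could not turn under those settings, so the count of 90 is no measure of its stability. The Klf2 log2 fold change ranged from -1.47 to -0.87, with adjusted p from 9.34e-11 to 0.000604, Klf15 from -1.04 to -0.60 (4.02e-07 to 1) and Klf6 from 0.17 to 0.46 (8.12e-06 to 0.241). Against 3 members called, 1 higher and 2 lower, the scale of all reads gave 0 higher and 4 lower. A test against a log2 fold change of 0.25 gave 1 called, 0 higher and 1 lower. Bonferroni adjustment gave 1 higher and 1 lower, and removal of the GC and length trend 2 higher and 2 lower. Of the 88 genes in the KLF-related lists other than the members, some untested, 25 were called (13 higher, 12 lower). The share over all tested genes was 20.9%. On the scale of all reads, where a constant shift is the only change, 45 were called (5 and 40). That share over all tested genes was 42.3%. Scaled to all reads but Rn45s, 3 members were called, 1 higher and 2 lower. A base mean minimum of 50 leaves Klf5 untested.

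No paired analysis was possible because the deposited table holds no values per library, and for the same reason leaving out libraries and a second count tool were not run. Depth limits Klf5, with fewer than 52 estimated normalized counts in either group, and low markers such as Cdh5.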
